A study of Mus musculus with 2 samples.

Results

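The MHC class II genes were 10 genes of the 26981 listed in either library: H2-Aa, H2-Ab1 and H2-Eb1, which encode classical α and β chains; Cd74, the invariant chain; H2-DMa, H2-DMb1 and H2-DMb2, chains of the peptide editor DM; H2-Oa and H2-Ob, chains of DO, which restrains DM; and Ciita, the class II transactivator. They were taken by name, with no threshold on their values, and all 10 had UMIs (unique molecular identifiers, which mark single captured transcripts) in both libraries. The study profiled CD45+ cells, enriched with magnetic beads, from visceral adipose tissue (VAT, here eWAT) of wildtype C57BL/6 mice aged 15 weeks. Mice of the NW library had normal water, and those of the ABX library had antibiotics (ampicillin, vancomycin, streptomycin and colistin in the drinking water). Each condition was 1 single-cell library, and the number of mice behind each was not given, so no test between conditions was possible. All intervals below are 95% intervals for counting error only and do not cover differences between animals.

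Class II molecules carry peptides from endocytosed proteins to CD4+ T cells. The α and β chains are made in the endoplasmic reticulum together with the invariant chain, which blocks the groove until proteases of the endosome, such as cathepsin S, cut it to a short remnant that DM then exchanges for peptide. Dendritic cells (DCs), B cells and macrophages transcribe these genes through CIITA, which binds no DNA itself but docks on factors at the X and Y elements upstream of each gene.

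After filters, 12474 of 17662 NW barcodes and 12724 of 17785 ABX barcodes were kept, with a median of 5092 and 3846 UMIs per cell. NW was the deeper library, with 75214427 UMIs in kept cells against 60770758 in ABX. The labels describe tagged samples loaded together in a micro-well cartridge, without saying whether NW and ABX shared it. Of the kept barcodes, 196 occurred in both libraries. The number expected by chance was not computed, so this count does not bear on that question. Cells were clustered with the class II genes left out, and clusters were named from marker genes with the suffix "-like". The monocyte-like name rests on 3 of 7 markers, each with a UMI in under 20% of its cells (Lyz1 19.1%, Fn1 19.0% and Ear2 17.6%); the cluster had a median of 2228 UMIs in NW and 1615 in ABX, and held 486 and 211 cells in place of 773 and 627 when RNA alone was clustered. Although the sample was labelled CD45+, 934 cells formed an endothelial-like cluster and 107 a fibroblast-like cluster. Each endothelial marker had a UMI in only 20.4% to 30.5% of the endothelial-like cells. Macrophage markers were at 75.6 and 54.0 UMIs per 10000 in them, in NW and ABX. In a finer clustering (resolution 1.0) the endothelial-like cluster held 104 and 205 cells. Doublets could not be called evenly, since a caller marked 2.76% of NW cells but 0.00786% of ABX cells.

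Of the 10 genes, 8 lay within 224335 bases of chromosome 17 (chr17:34092340-34316674, build GRCm38, GENCODE M21). In order along the chromosome they were H2-Oa, H2-DMa, H2-DMb2, H2-DMb1, H2-Ob, H2-Ab1, H2-Aa and H2-Eb1, all on the forward strand except H2-Aa. Ciita lay on chromosome 16 (chr16:10480059-10528418, forward strand), and Cd74 outside both regions, as given with its values. All 10 were annotated as protein-coding. Some counts were not the gene's alone by position: exons of H2-Oa shared 321 bases with the antisense gene BC051537, those of H2-DMa 360 bases with neighbours that include Brd2, and those of Ciita 329 bases with Dexi, and the counting is not stated to use strand. H2-DMb1 and H2-DMb2 transcripts were 94.6% identical over 1219 aligned bases with a longest identical run of 221 bases, so how reads were split between them is uncertain.

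RefSeq promoter windows, from 250 bases before to 50 after the start (GRCm38.p6), matched 7 of the 10 members. The Y letters TGATTGG stood in the window of 6 of them, against 4.01% of 32851 promoters on the gene strand and 7.82% on either strand. The X letters AACNNATG stood in 4, against 4.50% on the gene strand and 8.86% on either. X letters followed by Y letters on 1 strand within 40 bases were found in the promoters of 20 genes in all (0.0609% of promoters), and H2-DMb1, H2-DMb2, H2-Ob, H2-Eb1 and the neighbouring β chain gene H2-Eb2 were among them. These stretches are shown because they carry the letters that the members share; capitals mark X letters, where present, and then Y letters, read 5′ to 3′ on the gene's strand from chr17:34145114-34145173 (H2-DMb2, +), chr17:34238803-34238862 (H2-Ob, +), chr17:34305763-34305822 (H2-Eb1, +), chr17:34325530-34325589 (H2-Eb2, +) and chr17:34287857-34287916 (H2-Aa, −).
H2-DMb2: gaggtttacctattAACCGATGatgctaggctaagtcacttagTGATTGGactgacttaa
H2-Ob: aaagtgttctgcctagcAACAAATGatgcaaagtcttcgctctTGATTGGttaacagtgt
H2-Eb1: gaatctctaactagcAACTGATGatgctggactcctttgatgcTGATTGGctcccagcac
H2-Eb2: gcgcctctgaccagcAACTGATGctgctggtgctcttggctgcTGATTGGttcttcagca
H2-Aa: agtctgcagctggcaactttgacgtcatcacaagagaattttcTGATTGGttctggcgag
The X letters as searched were not in the H2-Aa window, and a letter match is a description of the sequence, not a measured binding site. The genes shown did not share 1 pattern across cells. H2-DMb2 and H2-Ob were highest in B cell-like cells, and H2-Aa and H2-Eb1 in cDC1-like and cDC2-like cells, as given below.

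Class II transcripts were a large share of RNA in DCs. Summed over the 10 members, they made up 56528 CPM (UMIs scaled to a total of 1000000 in the class) in the 1066 cDC1-like cells of NW and 57034 CPM in the 800 of ABX. In cDC2-like cells (374 in NW, 296 in ABX) the sum was 62117 and 60543 CPM. Monocyte-like cells followed at 38145 and 46057 CPM, then macrophage-like cells at 25939 and 32421, mature DC-like cells at 25940 and 27994, and B cell-like cells at 21744 and 23461. The order from cDC2-like to cDC1-like to monocyte-like cells was the same in both libraries, whereas macrophage-like and mature DC-like cells were level in NW, with overlapping intervals (25886 to 25992 and 25682 to 26199 CPM). The cDC1-like level was 2.18-fold that of macrophage-like cells in NW (2.17 to 2.19) and 1.76-fold in ABX (1.75 to 1.77). It was 2.60-fold that of B cell-like cells in NW (2.57 to 2.63) and 2.43-fold in ABX (2.41 to 2.45). The cDC2-like name rests on 4 of 6 markers. Of its listed markers, Clec10a was at 545 CPM in NW and 470 in ABX, against 635 and 486 in all other cells. Mgl2 was at 516 and 412 CPM, against 429 and 304.

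**Figure D1:**
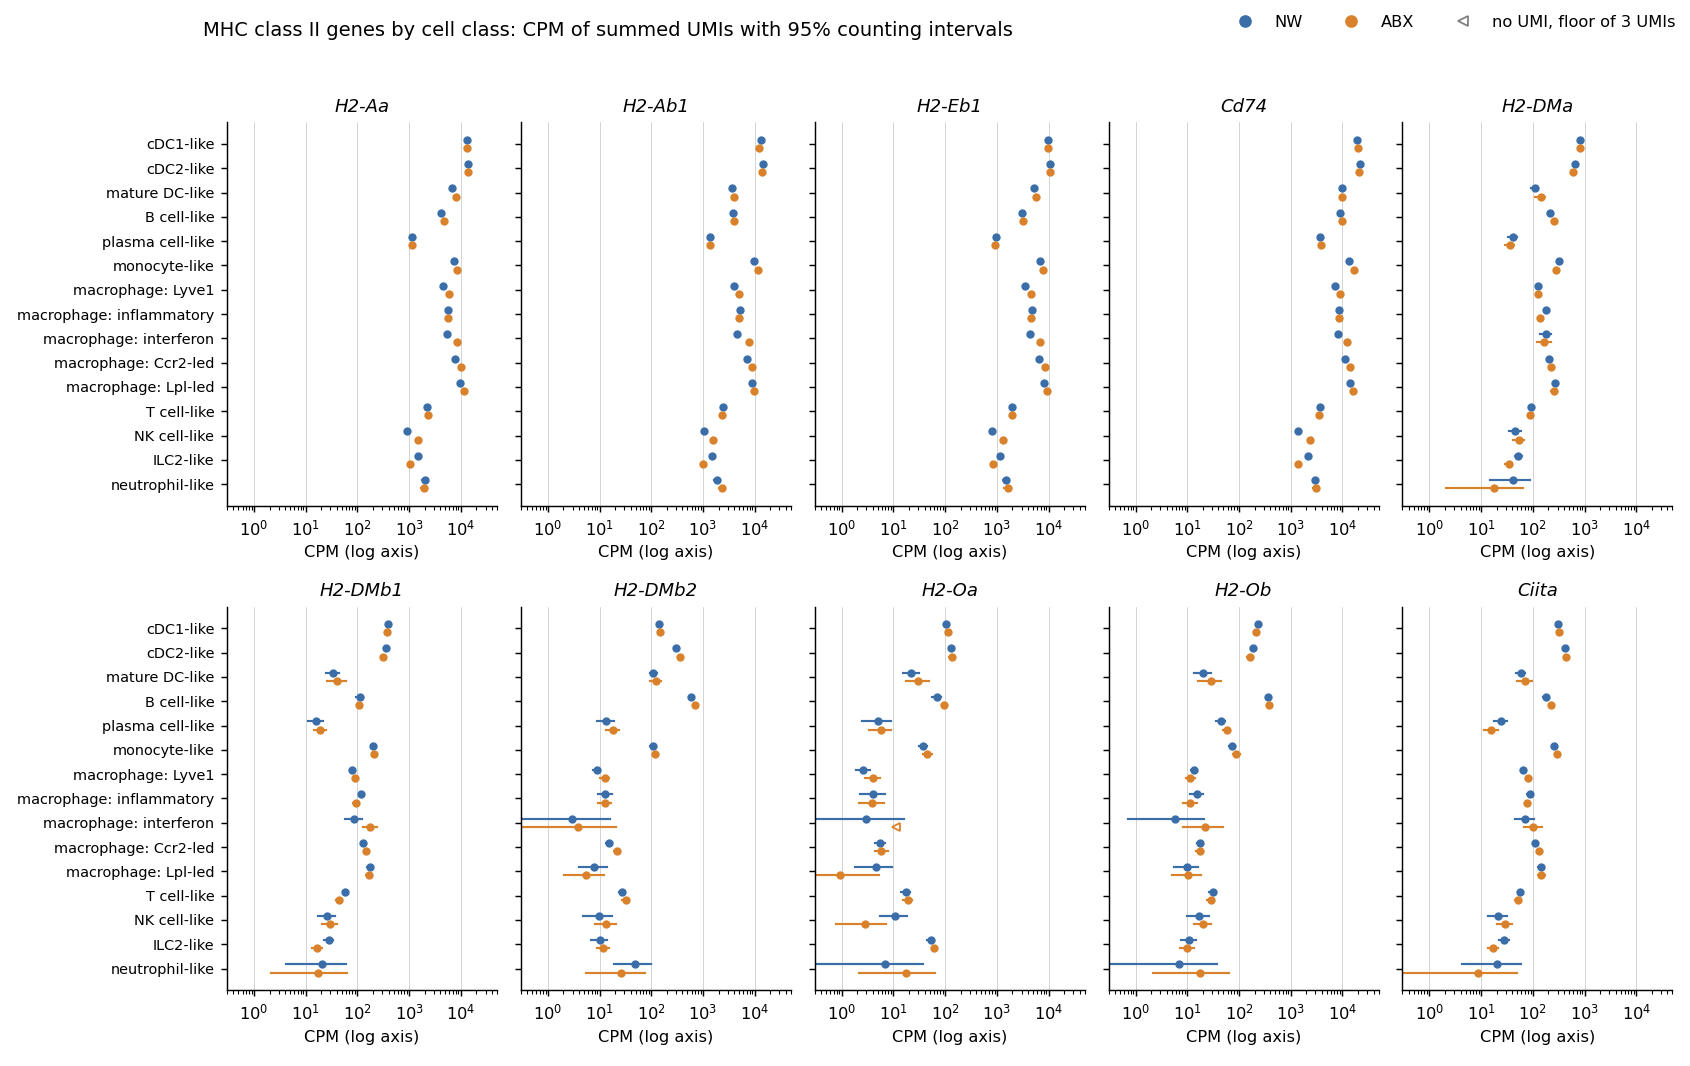
Level of each class II gene (CPM, log axis) in cell classes and macrophage-like states, with 1 point per library for NW and ABX and lines for the 95% counting interval; an open triangle marks a count of 0, drawn at the floor of 3 UMIs. H2-DMb2 and H2-Ob were highest in B cell-like cells, at 581 and 364 CPM in NW, and the other members in cDC1-like or cDC2-like cells.

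The level in lymphocytes was taken as the background for the other classes. T cell-like cells, which in mice are not known to transcribe class II genes, still held 10553 and 10539 CPM in the sum, but unevenly: the median T cell-like cell had 21.7 class II UMIs per 10000 in NW and 19.8 in ABX, and 16.0% and 15.1% of cells had at least 100 per 10000. The T cell-like cells at or above 100 per 10000 had a median of 6267 and 5305 UMIs, against 3382 and 2985 in those below it. Their summed macrophage markers were 48.1 and 44.7 per 10000, against 17.9 and 9.25 below it, and their T cell markers 13.2 and 15.1, against 31.0 and 32.6. Whether these were doublets or cells with RNA from outside was not tested. Over T, NK and ILC2-like cells and the unnamed cluster led by Cd8b1, the median was 20.9 class II UMIs per 10000 in NW (3023 cells) and 18.9 in ABX (3813 cells).

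Classes differed in how evenly their cells carried the transcripts. Every cDC1-like cell of both libraries was at or above 100 per 10000, with a median of 562 in NW (5th to 95th percentile 437 to 718) and 567 in ABX (424 to 738). B cell-like cells had a lower median, 215 in NW (110 to 382) and 228 in ABX (117 to 391), with a range that was wider relative to it. cDC2-like cells had medians of 676 and 624 and reached far lower, with a 5th percentile of 36.3 in NW and 17.1 in ABX. Macrophage-like cells spread from the lymphocyte level upward, with a median of 272 in NW (21.7 to 776) and 350 in ABX (22.0 to 855). Plasma cell-like cells, the antibody-secreting stage of B cells, had medians of 47.8 and 50.6.

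**Figure D2:**
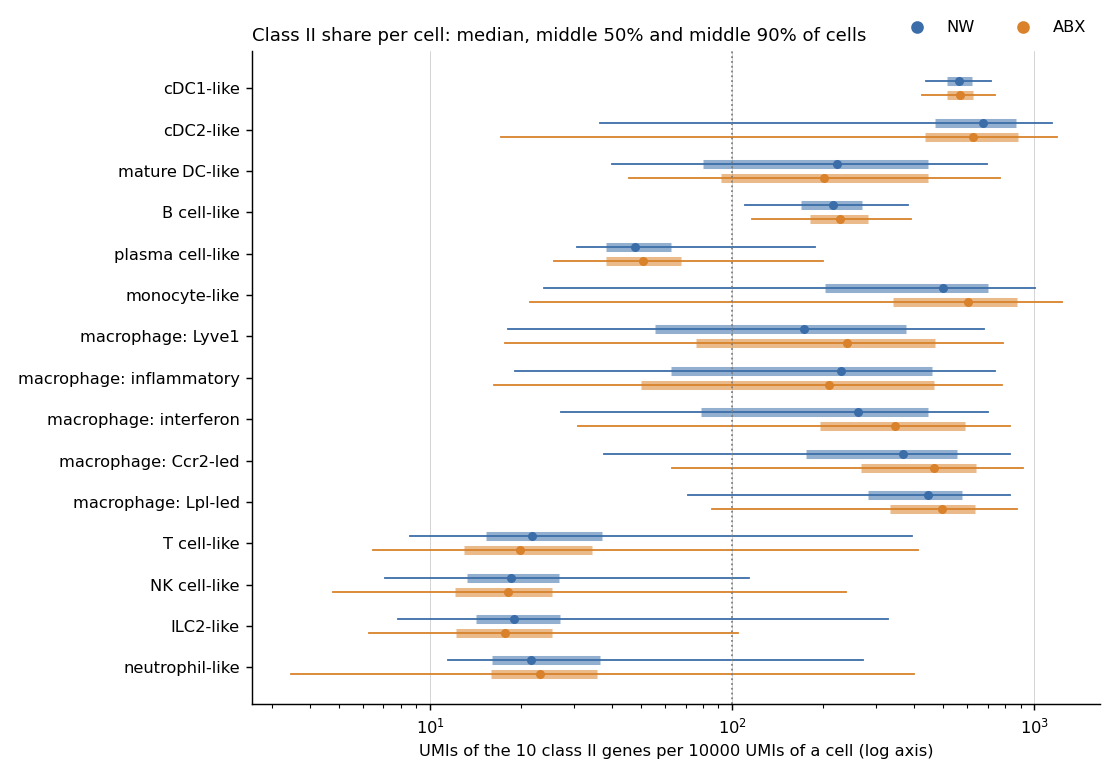
Class II UMIs per 10000 UMIs of a cell in each class of NW and ABX, with the median as a point, a thick bar from the 25th to the 75th percentile and a line from the 5th to the 95th; macrophage-like cells are split by state, and the dotted line is at 100. The cDC1-like and B cell-like ranges lie above 100, while the Lyve1 state runs from 18.1 to 681 in NW.

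The classical chains were highest in cDC1-like and cDC2-like cells. H2-Aa, an α chain, was at 12913 and 13413 CPM in cDC1-like cells of NW and ABX, at 13673 and 13467 in cDC2-like cells, at 5996 and 7659 in macrophage-like cells and at 4201 and 4658 in B cell-like cells. H2-Ab1, its β chain partner, was at 13070 and 12358 CPM in cDC1-like cells, at 14256 and 13748 in cDC2-like cells, at 5475 and 6685 in macrophage-like cells and at 3886 and 3912 in B cell-like cells. The E β chain H2-Eb1 followed the same order of classes, with 9647 and 9624 CPM in cDC1-like cells, 4941 and 6314 in macrophage-like cells and 3117 and 3134 in B cell-like cells. The invariant chain Cd74, on the forward strand of chromosome 18 (chr18:60803848-60812652), was at 18919 and 19672 CPM in cDC1-like cells, 9138 and 11336 in macrophage-like cells and 9023 and 10007 in B cell-like cells.

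Within a class, the UMI ratio of H2-Ab1 to H2-Aa was near equal in most, at 1.01 (1.00 to 1.02) in cDC1-like cells of NW and 0.913 (0.908 to 0.919) in macrophage-like cells of NW. Mature DC-like cells, marked by Fscn1, Ccl22 and Ccr7, stood apart at 0.537 (0.520 to 0.555) in NW and 0.507 (0.482 to 0.533) in ABX. Monocyte-like cells lay on the other side at 1.29 (1.27 to 1.31) and 1.39 (1.36 to 1.42). Capture and gene length were not separated in such a ratio, so only its change between classes is read here.

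Mature DC-like cells had less of each class II gene than cDC2-like cells, but by unequal factors. H2-Aa in mature DC-like cells was 0.502 of the cDC2-like level in NW (0.491 to 0.513) and 0.595 in ABX (0.576 to 0.614). H2-Ab1 was 0.259 of it in NW (0.251 to 0.266) and 0.295 in ABX (0.283 to 0.308). H2-DMa, the DM α chain, was 0.165 of it in NW (0.140 to 0.194) and 0.235 in ABX (0.185 to 0.296). Ciita was at 0.138 of the cDC2-like level in NW (0.110 to 0.172) and 0.159 in ABX (0.113 to 0.219). The β chain gene H2-Eb2, which is not among the members, was placed the other way, with 227 CPM in mature DC-like cells of NW and 288 in ABX, against 2.61 and 13.9 CPM in cDC2-like cells.

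Of the DM genes, H2-DMa and H2-DMb1 were highest in cDC1-like and cDC2-like cells, and H2-DMb2 in B cell-like cells. H2-DMa was at 798 and 801 CPM in cDC1-like cells, 658 and 598 in cDC2-like cells, 213 and 251 in B cell-like cells and 168 and 173 in macrophage-like cells. H2-DMb1, a DM β chain, was at 390 and 375, 352 and 314, 111 and 107, and 104 and 116 CPM in these classes, so that B cell-like and macrophage-like cells lay close together, with the order between them turned in ABX. The other β chain, H2-DMb2, was instead highest in B cell-like cells at 581 CPM in NW (546 to 618) and 687 in ABX (663 to 712), ahead of cDC2-like cells at 295 and 353, cDC1-like cells at 138 and 148 and macrophage-like cells at 11.4 and 15.6. At least 1 H2-DMb2 UMI was found in 83.2% and 84.0% of B cell-like cells, against 3.81% and 3.67% of macrophage-like cells and 4.91% and 4.88% of T cell-like cells.

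The UMI ratio of H2-DMb2 to H2-DMb1 ran from 5.25 (4.50 to 6.16) in B cell-like cells of NW and 6.41 (5.81 to 7.08) in ABX down to 0.109 (0.0985 to 0.121) and 0.135 (0.120 to 0.151) in macrophage-like cells. Between them lay mature DC-like cells at 3.26 and 3.04, cDC2-like cells at 0.838 and 1.13 and cDC1-like cells at 0.355 and 0.394. The order of these 5 classes was the same in both libraries, and how reads common to both paralogs were split was not tested.

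**Figure D3:**
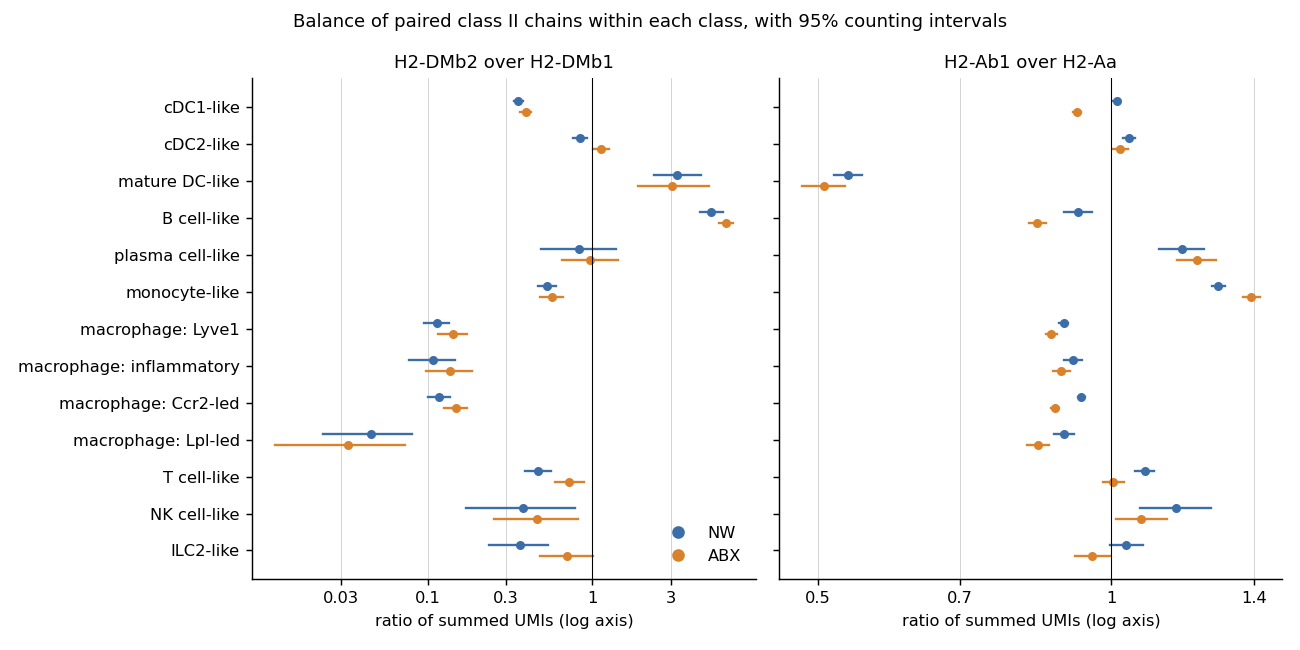
UMI ratios of chain pairs within each class (log axis), H2-DMb2 to H2-DMb1 and H2-Ab1 to H2-Aa, with points for NW and ABX and 95% counting intervals. Macrophage-like cells are split by state, without the interferon state, which had 1 H2-DMb2 UMI in each library; the DM β chain ratio among those drawn ran from 0.033 in the state led by Lpl to 6.41 in B cell-like cells, both in ABX, and the H2-Ab1 to H2-Aa ratio was lowest in mature DC-like cells at 0.507.

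The DO genes were highest in cDC1-like, cDC2-like and B cell-like cells. H2-Ob, the DO β chain, was at 364 and 386 CPM in B cell-like cells, 235 and 211 in cDC1-like cells and 184 and 161 in cDC2-like cells. In macrophage-like cells it was at 14.9 and 13.8 CPM, below the 30.9 and 28.1 of all T cell-like cells but not below the 12.6 and 12.8 of T cell-like cells under 100 class II UMIs per 10000. H2-Oa, the DO α chain, was at 130 and 135 CPM in cDC2-like cells, 106 and 114 in cDC1-like cells and 68.4 and 95.7 in B cell-like cells. In macrophage-like cells it was at 3.90 and 4.50 CPM, against 17.2 and 18.7 in all T cell-like cells and 7.43 and 8.21 in those under the limit. Mature DC-like cells had little of either, with 22.1 and 29.9 CPM of H2-Oa and 20.1 and 28.1 of H2-Ob. The cDC1-like level of H2-Oa was 27.1-fold (22.7 to 32.6) that of macrophage-like cells in NW and 25.2-fold (20.5 to 31.4) in ABX, and that of H2-Ob 15.7-fold (14.3 to 17.3) and 15.3-fold (13.6 to 17.4). For H2-Aa the same comparison gave 2.15-fold (2.14 to 2.17) and 1.75-fold (1.74 to 1.77), and for H2-DMa 4.75-fold (4.59 to 4.91) and 4.63-fold (4.44 to 4.82).

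The share of cells with a UMI set members against T cell-like cells. In cDC1-like cells, 10 of 10 members had a share whose interval lay above that of T cell-like cells, beside 53.1% of all genes in NW and 53.0% in ABX. The count was 10 of 10 also in cDC2-like cells (all genes: 35.7% and 31.7%) and in B cell-like cells (11.4% and 16.7%). In macrophage-like cells it was 7 of 10 (34.6% and 24.2% of all genes), without H2-DMb2, H2-Oa and H2-Ob. In ILC2-like cells, group 2 innate lymphoid cells marked by Il1rl1, Gata3 and Arg1, it was 1 of 10 (9.87% and 9.32% of all genes), which was H2-Oa. The counts of members were the same in both libraries and when cells with at least 1000 UMIs were thinned to that number. The shares of all genes were counted without thinning.

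H2-Oa in ILC2-like cells was the member that departed from the lymphocyte level. It was at 52.3 CPM in NW (44.9 to 60.5; 178 UMIs in 771 cells) and 62.2 in ABX (55.1 to 69.9; 281 UMIs in 1253 cells). This was 3.03-fold (2.38 to 3.88) and 3.32-fold (2.63 to 4.22) the T cell-like level, and 4.95-fold (2.76 to 9.76) and 21.8-fold (8.43 to 80.7) the NK cell-like level. In cells under 100 class II UMIs per 10000, H2-Oa was at 57.2 and 63.2 CPM in ILC2-like cells, with a UMI in 19.4% of 708 and 18.3% of 1189 cells, against 7.43 and 8.21 CPM in T cell-like cells and 9.63 and 3.46 CPM in NK cell-like cells. Its partner H2-Ob was at 5.41 and 7.48 CPM in the same ILC2-like cells, against 12.6 and 12.8 in T cell-like cells. The antisense gene BC051537 had 4 and 3 UMIs in ILC2-like cells, although without strand its reads over the shared exon cannot be told from those of H2-Oa. Cells with at least 1000 UMIs were thinned to that number. An H2-Oa UMI was then expected in 4.93% and 5.93% of ILC2-like cells, against 1.06% and 1.19% of T cell-like cells.

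Over all plasma cell-like cells Cd74 was 1.03-fold (1.01 to 1.06) the T cell-like level in NW and 1.05-fold (1.03 to 1.08) in ABX. It stood further above that level among cells under 100 class II UMIs per 10000, a limit on a sum that includes Cd74. In plasma cell-like cells under this limit (141 in NW, 223 in ABX), Cd74 was at 2922 and 2904 CPM, against 855 and 773 in T cell-like cells under the same limit. H2-Ob was at 40.5 and 56.9 CPM in them. In the same cells H2-Aa was at 554 and 565 CPM, against 532 and 505 in T cell-like cells under the limit. H2-Ab1 was at 747 and 829 CPM against 583 and 540, and H2-Eb1 at 491 and 518 against 412 and 390. Ciita was at 9.71 and 9.69 CPM, against 13.6 and 8.21. B cell-like cells had 4201 and 4658 CPM of H2-Aa and 179 and 224 of Ciita.

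Ciita itself was highest in cDC2-like cells, at 422 CPM in NW (398 to 447) and 442 in ABX (412 to 473), followed by cDC1-like cells at 313 and 319, monocyte-like cells at 251 and 298, B cell-like cells at 179 and 224 and macrophage-like cells at 87.2 and 104. Mature DC-like cells were lower, at 58.3 and 70.4 CPM. T cell-like cells had 56.8 and 51.2 CPM over all cells, but 13.6 and 8.21 in those under 100 class II UMIs per 10000. B cell-like cells had 2.05-fold (1.82 to 2.31) and 2.16-fold (1.999 to 2.32) the Ciita level of macrophage-like cells, although their summed class II level was below that of macrophage-like cells in both libraries.

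Among all genes, the 10 outside the members whose log2 level followed the summed class II level most closely over 12 classes in 2 libraries were led by Plekho1 (Pearson r = 0.97 over 24 points), Tbc1d9 (0.96) and Pld4 and Rassf4 (0.94). Of the members, H2-Oa (0.54), H2-Ob (0.65) and H2-DMb2 (0.73) followed it least. The points share libraries and RNA from other cells, so these values are a description.

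The macrophage-like cells, 5778 in NW and 4981 in ABX, fell into 5 states that were made without the class II genes. Lyve1-marked cells (2542 and 1779) had 19477 CPM of class II transcripts in NW and 24756 in ABX. Cells led by Ccr2, a monocyte chemokine receptor (2289 and 2107), had 32999 and 41944 CPM, and the small state led by Lpl, lipoprotein lipase (287 and 255), had the most, at 41097 and 47294. Inflammatory cells, marked by Il1b, Cx3cr1 and Tnf (608 and 785), had 24378 and 23989 CPM. The state led by Lpl was 2.11-fold (2.09 to 2.13) above the Lyve1 state in NW and 1.91-fold (1.89 to 1.93) in ABX. In NW the Lyve1 state was the lowest and in ABX the inflammatory state, but with clusters from RNA alone or at resolution 1.0 the Lyve1 state was the lowest in both libraries, at 17869 and 21631 CPM in ABX.

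Ciita was arranged likewise across the states. It was at 63.9 and 82.0 CPM in the Lyve1 state, 112 and 132 in the state led by Ccr2, 142 and 145.2 in the state led by Lpl and 86.9 and 78.3 in the inflammatory state. H2-DMa was at 128 and 125 CPM in the Lyve1 state and at 273 and 256 in the state led by Lpl. The share of cells with at least 100 class II UMIs per 10000 was 63.7% in NW (61.7 to 65.5) and 70.1% in ABX (67.9 to 72.2) in the Lyve1 state, against 84.6% (83.0 to 86.0) and 92.0% (90.8 to 93.1) in the state led by Ccr2.

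Macrophage-like cells of each library were also cut into tertiles by their own class II level, which makes the members' differences a matter of selection and a description only. The median was 53.5 per 10000 in the lowest tertile and 564 in the highest tertile of NW, and 76.5 and 655 in ABX. Ciita went from 17.5 to 199 CPM in NW and from 30.8 to 208 in ABX, H2-DMa from 55.9 to 344 and from 59.2 to 336. H2-Ob differed less, with 10.6 and 15.9 CPM in NW (log2 0.58, 0.24 to 0.92) and 11.9 and 18.6 in ABX (0.64, 0.25 to 1.04). Cells of the highest tertile were shallower, with a median of 4276 UMIs against 7648 in NW and 3099 against 5359 in ABX; the part of depth in these values was not tested.

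Genes outside the members differed between the tertiles in a divided way. For factors that bind the X and Y elements, the log2 difference of the highest against the lowest tertile was 0.22 (−0.14 to 0.57) for Rfx5 in NW and −0.25 (−0.70 to 0.19) in ABX, and 0.14 (−0.02 to 0.30) and −0.06 (−0.27 to 0.16) for Nfya. In ABX, Nfyb differed by −0.34 (−0.67 to −0.01) and Creb1 by 0.29 (0.12 to 0.46), where in NW they were at 0.03 and 0.02. Cathepsin S, Ctss, differed by −0.02 (−0.05 to 0.01) and 0.00 (−0.03 to 0.04), while Ctsl differed by −0.97 and −0.87 and Ctsd by −0.68 and −0.76, lower in the highest tertile. Cd83, which protects surface class II from degradation, was higher by 0.84 and 0.61, and the ubiquitin ligase gene March8 differed by −0.55 and −0.51. Markers of the Lyve1 state were lower, with Lyve1 at −2.34 and −2.64, Fcna at −2.36 and −2.50 and Timd4 at −2.51 and −2.02, and Ccr2 was higher by 2.10 and 2.36. Other genes listed with Ccr2 as markers of the inflammatory state were divided, with Il1b at 1.19 and −0.25, Cd72 at 0.53 and 0.81, Tnf at 0.01 and −1.17, Cx3cr1 at 0.18 and −0.77, Cxcl2 at −0.07 and −1.08, and Ccl12 at −0.77 and −2.35. The Lyve1 state made up 59.0% of the lowest and 29.0% of the highest tertile in NW, and 49.0% and 23.8% in ABX.

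**Figure D4:**
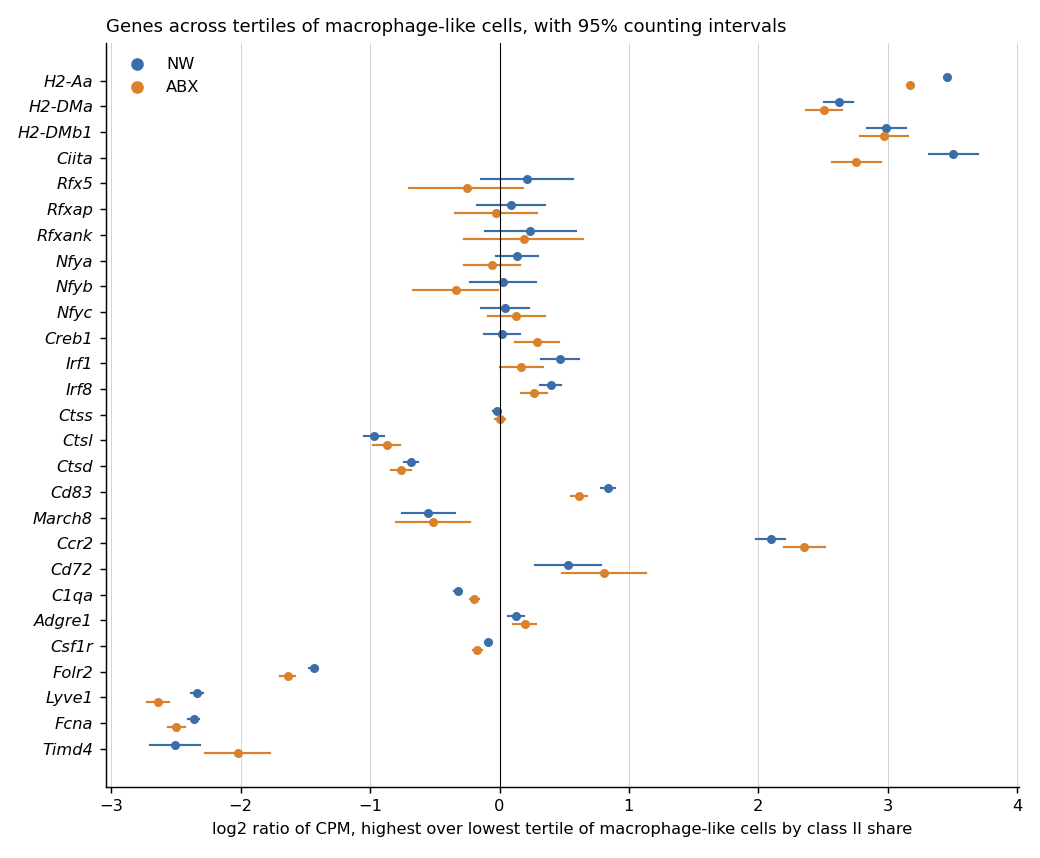
Log2 level of the highest against the lowest tertile of macrophage-like cells by class II level, for 4 members, other pathway genes and markers, with points for NW and ABX and 95% counting intervals. Ciita was higher by 3.51 in NW and 2.76 in ABX, Ctss differed by −0.02 and 0.00, and Lyve1 by −2.34 and −2.64.

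Between ABX and NW, the class II level of cDC1-like and cDC2-like cells was nearly the same. The log2 ratio of the summed level in ABX against NW was 0.01 (0.01 to 0.02) in cDC1-like cells and −0.04 (−0.05 to −0.03) in cDC2-like cells, where it turned to 0.086 with clusters from RNA alone and to 0.052 without the 10% of cells with the highest doublet scores. With RNA alone the cDC2-like class held other cells, 726 in NW and 612 in ABX in place of 374 and 296. Of these, 357 and 363 formed a cluster with a median of 1385.5 UMIs. None of 10 members passed a ratio of 1.5 either way with an interval that left out 1, beside 1.08% of all genes with at least 200 UMIs in cDC1-like cells and 2.26% in cDC2-like cells. The median log2 ratio over the members was 0.02 in cDC1-like cells, where over all genes it was −0.01. The widest gaps were small: in cDC1-like cells H2-Ob was at 235 CPM in NW and 211 in ABX (log2 ratio −0.16, −0.25 to −0.06), and in cDC2-like cells H2-DMb2 was at 295 and 353 (0.26, 0.11 to 0.41). In mature DC-like cells (181 in NW, 74 in ABX) the summed log2 ratio was 0.11 (0.08 to 0.14), and H2-Aa was at 6861 and 8007 CPM (0.22, 0.17 to 0.27).

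In B cell-like cells (351 in NW, 939 in ABX) the summed log2 ratio was 0.11 (0.09 to 0.13), and 0 of 10 members passed 1.5-fold, beside 3.72% of all genes. H2-Oa had the largest difference, from 68.4 CPM in NW to 95.7 in ABX (0.48, 0.19 to 0.79). Ciita went from 179 to 224 CPM (0.32, 0.14 to 0.51) and H2-DMb2 from 581 to 687 (0.24, 0.14 to 0.35), whereas H2-Ab1 (3886 and 3912) and H2-Eb1 (3117 and 3134) were level. RNA of macrophages in these cells was lower in ABX, with 16.3 macrophage marker UMIs per 10000 in NW and 8.82 in ABX, and its part in the ratios was not tested.

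Macrophage-like cells had more class II transcript in ABX, by a log2 ratio of 0.32 (0.32 to 0.33) in the sum. Their median depth was 5656.5 UMIs in NW and 4083 in ABX, and their macrophage markers were at 145.8 and 129.5 per 10000. The part of depth and of these markers in the ratio was not tested. H2-Aa, H2-Eb1 and Ciita went from 5996 to 7659, from 4941 to 6314 and from 87.2 to 104 CPM, while H2-DMa (168 and 173; 0.04, −0.02 to 0.10) and H2-Ob (14.9 and 13.8; −0.12, −0.33 to 0.09) had intervals that included no difference. Of the 10 members 0 passed 1.5-fold, beside 3.86% of all genes, but 9 of 10 had a log2 ratio above 0, and their median was 0.27 against 0.01 over all genes. The Lyve1 state was 44.0% of macrophage-like cells in NW and 35.7% in ABX, and with the states weighted as in NW the log2 ratio was 0.31. The ratio was 0.35 in the Lyve1 state (0.34 to 0.35), 0.35 in the state led by Ccr2 (0.34 to 0.35) and 0.20 in the state led by Lpl. It was −0.02 in the inflammatory state, where H2-DMa (−0.39) and H2-DMb1 (−0.37) were lower in ABX. With 1 library per condition, differences between states in this ratio were not tested.

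**Figure D5:**
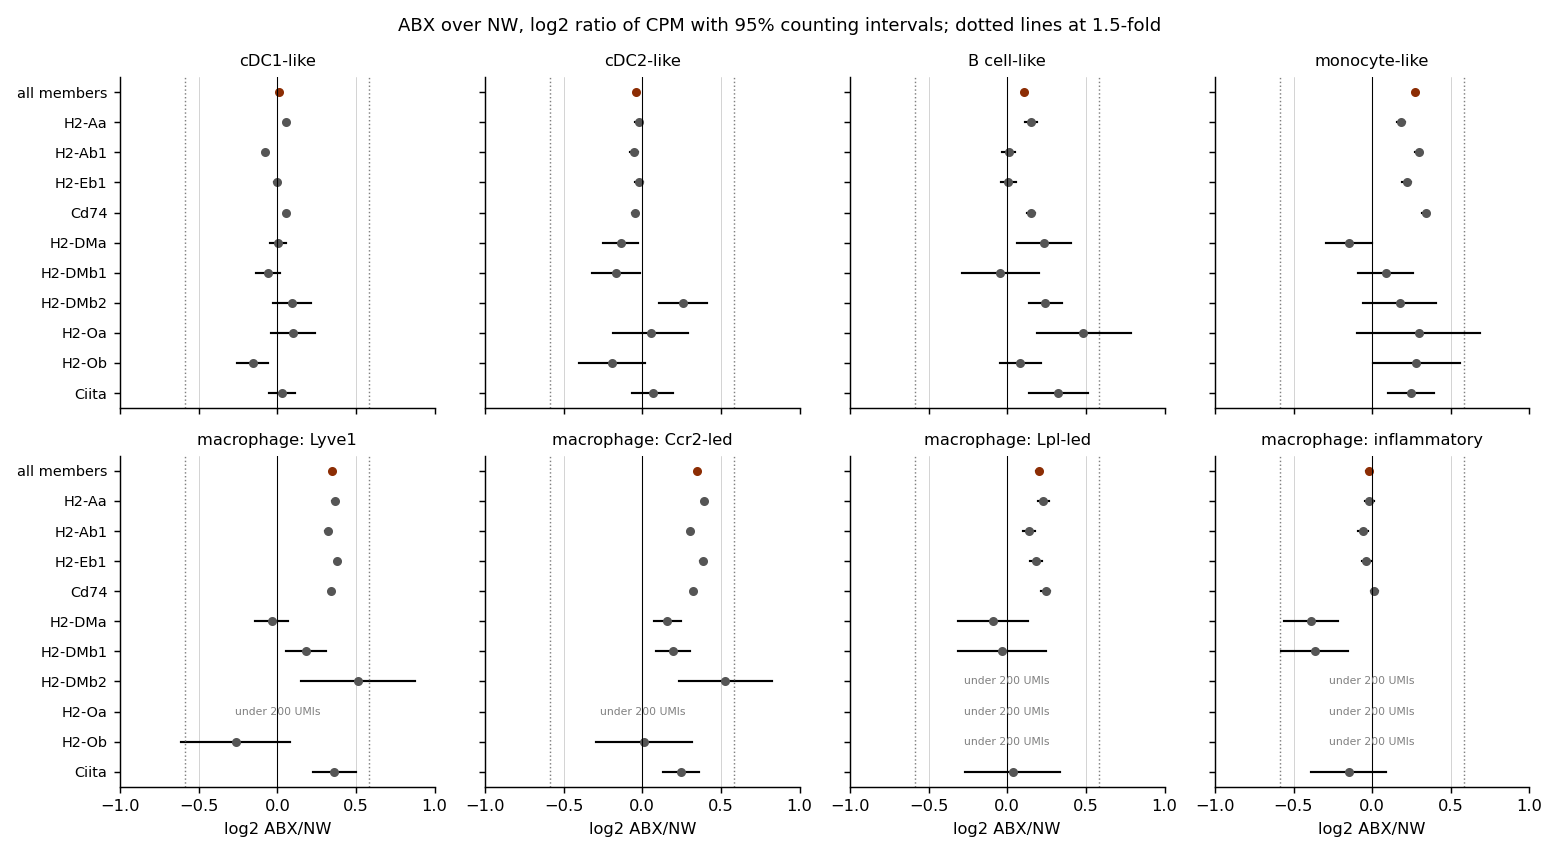
Log2 ratio of ABX against NW for each member and for their sum in 4 classes and 4 macrophage-like states, with 95% counting intervals; dotted lines mark 1.5-fold either way. The sum lies at 0.01 in cDC1-like, −0.04 in cDC2-like and 0.11 in B cell-like cells, at 0.35 in the Lyve1 state and at −0.02 in the inflammatory state.

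The small interferon state (52 cells in NW, 55 in ABX), marked by Ifit genes, had 22777 CPM in NW and 35873 in ABX, a log2 ratio of 0.66 (0.61 to 0.70). There 4 of the 4 members with at least 200 UMIs, H2-Aa, H2-Ab1, H2-Eb1 and Cd74, passed 1.5-fold, beside 9.11% of all genes. In monocyte-like cells the log2 ratio of the sum was 0.27, and 0 of 10 members passed 1.5-fold, beside 9.49% of all genes. In T cell-like cells, whose sums were 10553 and 10539 CPM, 0 of 10 members passed, beside 4.52%. That sum joined clusters that differed: the cluster led by Lef1 (78 cells in NW, 154 in ABX) had 33488 and 14739 CPM, that led by Il18r1 (88 and 199) 2413 and 5222, and that led by Cd4 (663 and 553) 11322 and 13652. In the cluster led by Il18r1, 1 NW cell and 7 ABX cells were at or above 100 class II UMIs per 10000, and 39 and 33 in that led by Lef1. The clusters led by Foxp3 and Cd163l1 differed by −0.13 (−0.18 to −0.07) and −0.01 (−0.08 to 0.05) on the log2 scale. In NK cell-like cells 4 of the 4 members with at least 200 UMIs passed and were higher in ABX, beside 1.12% of all genes, and in ILC2-like cells 3 of 6 (Cd74, H2-Ab1 and H2-DMa) passed and were lower, beside 3.61%. The median NK cell-like cell had 18.6 class II UMIs per 10000 in NW and 18.1 in ABX. The median ILC2-like cell had 18.9 and 17.7, and the median T cell-like cell 21.7 and 19.8.

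The 30 other genes of the pathway were counted in the same way. In cDC1-like cells 1 of the 24 with at least 200 UMIs passed 1.5-fold, beside 1.08% of all genes. This was Ctsd, which was lower in ABX. In cDC2-like cells 0 of 22 passed, beside 2.26% of all genes. In B cell-like cells 4 of 25 passed, beside 3.72% of all genes: H2-Eb2 was higher, at 33.1 CPM in NW and 58.2 in ABX (log2 ratio 0.82, 0.40 to 1.25), and the proteases Ctsb (785 and 434), Ctsd (91.8 and 43.7) and Lgmn (136 and 88.1) were lower. In macrophage-like cells 1 of 29 passed, beside 3.86% of all genes. This was the B cell factor gene Pax5, from 1.94 to 6.50 CPM. B cell-like cells numbered 351 in NW and 939 in ABX, and their part in this value was not tested. In monocyte-like cells 6 of 22 passed, beside 9.49% of all genes: Irf4 was higher (log2 ratio 0.64, 0.24 to 1.05), and 5 proteases were lower: Ctss (2992 and 1853), Ctsl (402 and 192), Ctsb (3625 and 1900), Ctsd (828 and 406) and Ctsz (496 and 325). Macrophage markers in monocyte-like cells were at 48.6 per 10000 in NW and 30.7 in ABX. In B cell-like cells they were at 16.3 and 8.82, and their part in these values was not tested. Lower endosomal processing genes were not limited to these classes. They were 4 of 8 in ILC2-like, 2 of 8 in T cell-like and 0 of 4 in NK cell-like cells. Of all genes, 3.61%, 4.52% and 1.12% passed 1.5-fold there.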

How the data were processed

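CD45+ cells of VAT were profiled on the BD Rhapsody platform. Per the study's methods the authors ran the manufacturer's whole-transcriptome pipeline; the submitters' processing notes name mm10, R 3.6.0 and Seurat 3.0.1. The deposited files hold counts: whole-number UMIs per gene and cell, not normalized, with 10 antibody columns. Cells with at least 500 gene UMIs, at least 200 genes and at most 25% mitochondrial UMIs were kept. RNA and 8 antibodies were clustered together (Seurat 5.3.0, resolution 0.6, 30 principal components, 2000 variable genes) without the class II genes, and clusters were named from marker lists; markers of macrophage states were counted as macrophage markers after the clusters had been seen. CPM is the summed UMIs of a gene scaled to 1000000 UMIs of the class. Ratios have exact Poisson intervals and shares exact Clopper-Pearson intervals, at 95%. With 1 library per condition no test was run; genes with 200 or more UMIs in the class, both libraries added, counted as past 1.5-fold where the interval left out 1. For the shares against T cell-like cells, all genes with a UMI in at least 10 cells were counted alike. The interval code was run on simulated Poisson counts with known folds. These held no variation between cells, so the run checks the code and not how well the intervals suit these data. The text names every member, pathway genes past 1.5-fold, and genes of the comparison of tertiles chosen after their values were seen; members and lists were chosen with earlier results of these data known. Promoter windows are from RefSeq. Values in the supplement were not used here.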

Additional observations from a re-analysis of the deposited data

Results flagged for a closer look

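The summed class II level differed between ABX and NW in opposite directions in 2 lymphocyte classes. In NK cell-like cells (320 in NW, 399 in ABX) it was 4298 CPM in NW and 6852 in ABX, a log2 ratio of 0.67 (0.62 to 0.72), and in ILC2-like cells (771 and 1253) it was 6535 and 4397 CPM, a log2 ratio of −0.57 (−0.60 to −0.54). Every counting interval here leaves out sample-to-sample variation, and the difference between the classes was not tested. The median cell hardly moved, at 18.6 and 18.1 per 10000 in NK cell-like and 18.9 and 17.7 in ILC2-like cells. The share of cells at or above 100 per 10000 was 5.62% and 11.03% in NK cell-like cells and 8.17% and 5.11% in ILC2-like cells. Macrophage markers moved with it, at 10.2 and 12.9 per 10000 in NK cell-like cells and 14.9 and 9.28 in ILC2-like cells; their part in the result was not tested. Clusters of T cell-like cells also differed in opposite directions, with a log2 ratio of 1.11 (1.01 to 1.22) in that led by Il18r1 and −1.18 (−1.22 to −1.15) in that led by Lef1, and this difference was not tested either. In the cluster led by Il18r1, 1 NW and 7 ABX cells were at or above 100 per 10000. Its median cell went from 18.8 to 16.8 per 10000, and its macrophage markers from 10.1 to 6.46, opposite to its summed level. In that led by Lef1, the median went from 75.1 to 19.6 and macrophage markers from 20.7 to 8.37.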

How the results depend on the processing

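No paired analysis was possible because each condition was 1 library. For cDC1-like cells the log2 ratio of ABX to NW (0.01) was 0.031 with clusters from RNA alone and 0.019 without mitochondrial UMIs in the total, and stayed above 0 in all 11 alternatives. For cDC2-like cells (−0.04) it turned to 0.086 with RNA alone (726 and 612 cells in place of 374 and 296) and 0.052 without the highest 10% of Scrublet scores, and was −0.061 at resolution 1.0 and −0.11 as a median over cells. For B cell-like cells (0.11) it was 0.15 with class II genes kept in the clustering, 0.13 with RNA alone, 0.13 without mitochondrial UMIs, 0.086 as a mean and 0.082 as a median over cells, 0.21 with T cell-like CPM subtracted, 0.13 with the lymphocyte median subtracted and 0.15 with the median gene set to 1. For macrophage-like cells (0.32) it was 0.36 with RNA alone, 0.34 without mitochondrial UMIs, 0.28 at no more than 10% mitochondrial UMIs, 0.34 without high Scrublet scores, 0.27 as a mean, 0.37 as a median, 0.51 and 0.36 after these subtractions, 0.31 with the median gene set to 1 and 0.31 with states weighted as in NW. The lowest against the highest macrophage-like state had a log2 ratio of −1.08 in NW and −0.98 in ABX. Reclustering changed which states were compared, the highest being led by Lyz1, Klkb1 or Jaml in place of Lpl: with class II genes kept it was −0.62 and −0.79, with RNA alone −1.52 and −1.52, and at resolution 1.0 −1.53 and −1.23, the last 2 settings with Lyve1 lowest in both libraries. It was, at 10% mitochondrial UMIs −1.14 and −1.103, as a mean −0.86 and −0.78, as a median −1.36 and −1.24, with T cell-like CPM subtracted −1.78 and −1.45 and with the lymphocyte median subtracted −1.16 and −1.04; without high Scrublet scores it was −1.12 in NW. Counts of genes past 1.5-fold at a minimum of 50 UMIs in place of 200 were 362 against 78 in cDC1-like, 464 against 86 in cDC2-like, 627 against 175 in B cell-like and 995 against 392 in macrophage-like cells, where more genes entered the count. The lymphocyte median subtracted here was over T, NK and ILC2-like cells, without the cluster led by Cd8b1. The medians over cells, the lymphocyte subtraction and the state weights were chosen after seeing the data. The cause of the other differences was not tested.

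Depth limits the low members: H2-Oa had 139 UMIs in NW macrophage-like cells, and H2-DMb2 had 12 in the NW state led by Lpl. No interval covers differences between animals, so a ratio between libraries cannot be told apart from a difference between the mice or preparations used.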
